A study of Mus musculus with 18 samples.

Results

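The genes described here are the translation initiation factors of the mouse, measured by RNA-seq in 2 tissues of obese mice, the quadriceps muscle and white fat. They were taken by name: every gene symbol starting with Eif and a digit, leaving out pseudogenes and the Eif4ebp genes, that reached 1 TPM in 3 or more of a tissue's 9 libraries. Of 52 such names among 33641 gene symbols, 51 passed in adipose tissue and 50 in muscle. Eif5a2 passed in adipose tissue and not in muscle, and Eif4e1b, an eIF4E relative, passed in neither.

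The animals were wild-type DBA/2J males of about 20 weeks that had been fed a high-fat diet for 12 weeks and stayed on it for 12 weeks of treatment. Of the 9 mice, 3 received daily prednisone, 3 weekly prednisone and 3 vehicle, which the labels give as a daily injection. Prednisone is a synthetic glucocorticoid and was injected into the peritoneum at 1 mg/kg in a saline buffer from a DMSO stock. Both tissues were taken from each mouse 24 hours after the last injection, which gave 18 libraries, 3 in each group of tissue and regimen. A single strain and a single sex were used, and the labels do not say what weekly-treated mice received on the other days. The design text counts 2 adipose samples of daily mice, whereas the labels and the table hold 3, and all were used.

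Translation of a cellular mRNA begins when the eIF4F complex (the cap-binding protein eIF4E, the scaffold eIF4G and the RNA helicase eIF4A) binds its capped end and recruits the small ribosomal subunit through eIF3. The subunit carries the initiator tRNA on eIF2 and scans to the start codon with eIF1, eIF1A and eIF5, after which eIF5B joins the large subunit and eIF2 is recharged with GTP by eIF2B. Kinases of the eIF2 alpha subunit slow initiation under stress, and the 4E-BPs, controlled by mTORC1, sequester eIF4E. In skeletal muscle this step is known as a target of glucocorticoids and of insulin.

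Values are the authors' TPM, the share of a library's transcripts after correction for transcript length, summed over the transcripts of a symbol. Markers of skeletal muscle and of adipocytes were highest in the tissues as labelled. In muscle the 14 markers of muscle summed to 125984 to 146030 TPM, and in adipose tissue the 10 markers of adipocytes summed to 34857 to 38790 TPM. Adipocyte markers also summed to 709 to 1832 TPM in the muscle libraries, with 1832, 709 and 1116 TPM in daily mice. Their part in the muscle values of the initiation factors was not tested. The daily mouse 2 and the weekly mice 2 and 3 stood apart in adipose tissue, with muscle markers at 1106, 1767 and 1294 TPM, against 180.2 to 295 TPM in the other 6 adipose libraries. Transcripts of the mitochondrial genome held 27.5% to 31.3% of all TPM in the muscle libraries, against 12.9% to 16.9% in those of adipose tissue. The depth of the libraries is unknown, because TPM holds no counts of reads, and every error below is the spread between mice. The study asks what 12 weeks of either regimen do to the transcriptomes of both tissues.

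Summed over all initiation factors, mRNA held 3274 ± 33.4 TPM in muscle of daily mice, 3364 ± 37.5 TPM after weekly prednisone and 3487 ± 52.1 TPM after vehicle (SD, n = 3 each). In adipose tissue the same sum was 5012 ± 54.3 TPM after daily prednisone, 5168 ± 30.4 TPM after weekly prednisone and 5107 ± 124 TPM after vehicle (SD, n = 3 each). By TPM each daily muscle library lay below each weekly one, and each weekly one below each vehicle library, and the daily mean lay 0.09 below vehicle on the log2 scale, as did the median of all genes (-0.09). This order did not hold with TMM scaling, a rescaling of each library by the typical ratio of its genes to a common library: the muscle sums were then 3359 ± 128 in daily, 3409 ± 29.3 in weekly and 3354 ± 31.4 in vehicle mice, and daily libraries overlapped both other groups. In adipose tissue each weekly library lay above each daily library by TPM and vehicle libraries overlapped both, while with TMM scaling the sums were 5187 ± 313 in daily, 4786 ± 261 in weekly and 5339 ± 67.7 in vehicle mice and each weekly library lay below each vehicle library. The median residual SD, on the scale of log2(TPM + 1), was 0.07 over the members in muscle and 0.09 in adipose tissue, against 0.12 and 0.16 over all genes tested in those tissues. Single members lay above those values, up to 0.18 for Eif2s1 in muscle and 0.26 for Eif4g3 in adipose tissue.

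**Figure D1:**
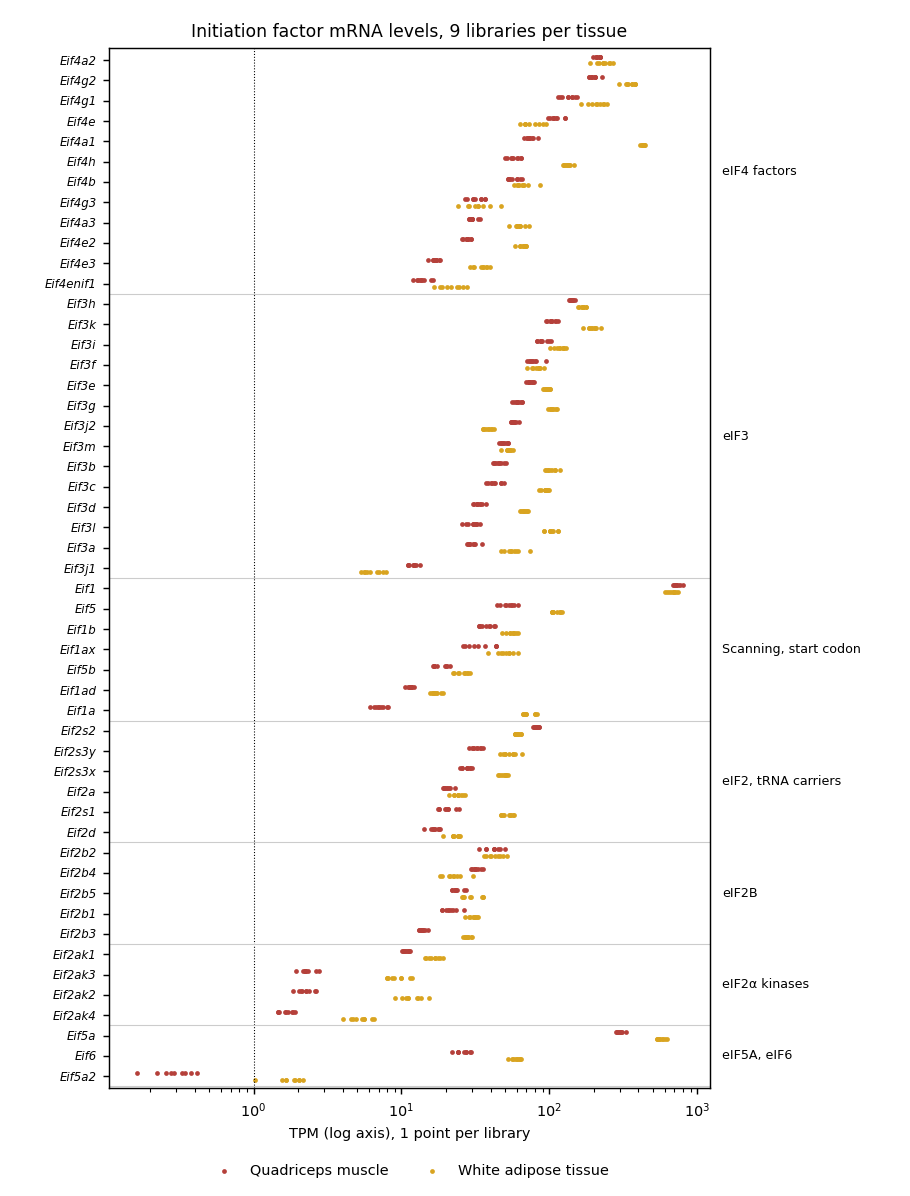
TPM of each initiation factor in the 9 muscle and the 9 adipose libraries, on a log axis, with genes grouped by role and ordered by their muscle mean; the dotted line marks 1 TPM. Eif1 lies highest in both tissues (687.9 to 794 TPM in muscle, 606 to 735 TPM in adipose tissue), Eif4a1 and Eif1a lie apart between tissues, and Eif5a2 lies below 1 TPM in every muscle library.

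Eif1 and Eif5a took the top 2 places in both tissues. Eif1, which guards the choice of start codon, averaged 726 TPM in muscle and 675 TPM in adipose tissue over 9 libraries each. Eif5a, the hypusine-carrying factor that helps the ribosome through difficult peptide bonds, followed with 299 TPM in muscle and 568 TPM in adipose tissue. The third place was taken by a helicase in both, Eif4a2 with 212 TPM in muscle and Eif4a1 with 430.4 TPM in adipose tissue. In muscle Eif1, Eif5a and Eif4a2 did not overlap each other, whereas the ranges of Eif1 and Eif5a overlapped in adipose tissue and those of Eif4a2 and Eif4g2 overlapped in muscle. In muscle the 3 lowest means belonged to Eif2ak3 (PERK, the endoplasmic reticulum stress kinase) at 2.31 TPM, Eif2ak2 (PKR, which senses double-stranded RNA) at 2.25 TPM and Eif2ak4 (GCN2, which senses amino acid shortage) at 1.66 TPM, and the ranges of neighbours in this order overlapped. In adipose tissue the lowest were Eif3j1 at 6.43 TPM, Eif2ak4 at 5.30 TPM and Eif5a2 at 1.77 TPM. Nearest to the limit of 1 TPM among the genes kept were Eif2ak4 in muscle, with 1.46 to 1.91 TPM, and Eif5a2 in adipose tissue, with 1.03 to 2.16 TPM. Just outside lay Eif4e1b, with 0.0756 to 0.910 TPM in muscle and 0.0992 to 1.03 TPM in adipose tissue, and Eif5a2 in muscle, with 0.162 to 0.413 TPM.

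The first question was how daily prednisone changed these genes in muscle. By TPM, 8 of the 50 initiation factors were called lower in muscle after daily prednisone and none higher, where 11.8% of all genes were called lower. With TMM scaling 3 of the 8 stayed called. The 8 were 4 factors of the cap-binding and helicase group (Eif4g1, Eif4g3, Eif4b and Eif4h), 3 subunits of eIF3 (Eif3c, Eif3i and Eif3g) and the scanning factor Eif1ax. The decreases were small, between 0.18 and 0.60 on the log2 scale. No member of eIF2, eIF2B, the eIF2 alpha kinases or the eIF5A and eIF6 group passed the test.

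Genes were compared with limma on log2(TPM + 1) over all 12246 genes tested in muscle, and a gene is called where its Benjamini-Hochberg adjusted p is under 0.05. Of all genes tested, 13.7% were called in this comparison and 11.8% were called lower, so the 8 of 50 members (16%) lie close to the background. The median log2 fold change was -0.09 over the 50 members and -0.09 over all genes, 37 of 50 members lay below 0, and so did 68.4% of all genes. Groups did not overlap for 21 members, 18 of them lower after daily prednisone and 3 higher, where 33.8% of all genes showed no overlap, 27.8% all lower and 6.02% all higher. In bulk tissue, fewer cells of a type and less RNA per cell cannot be told apart. In the muscle of daily mice 9 of 10 markers of regenerating muscle were called higher, and they summed to 172 to 248 TPM in daily mice, against 68.6 to 72.8 TPM in vehicle mice. Of 12 macrophage markers 4 were called higher, with sums of 403 to 622 TPM in daily mice and 249 to 363 TPM in vehicle mice. The part of these cells in the values of the initiation factors was not tested.

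The promoter stretches of 7 of the 8 genes called lower in muscle after daily prednisone are shown. Eif3i had no promoter in the table, and of the 2 starts of Eif4g3, a base apart, the first is used. Each stretch runs from 80 bases before the annotated start to 20 bases from it on, 5′ to 3′ on the strand of the gene, with letters from RefSeq on GRCm38.p6. Eif4g1 lies at chr16:20672647-20672746 on the plus strand, Eif3c at chr7:126566347-126566446 on the minus strand, Eif3g at chr9:20898571-20898670 on the minus strand, Eif1ax at chrX:159372098-159372197 on the plus strand, Eif4b at chr15:102073693-102073792 on the plus strand, Eif4h at chr5:134639390-134639489 on the minus strand and Eif4g3 at chr4:137993375-137993474 on the plus strand. Capitals mark the ETS motif CCGGAAG or its reverse complement (Eif3c, Eif3g) and the E-box CACGTG (Eif4g1, where a second match is broken by the end of the stretch).
Eif4g1: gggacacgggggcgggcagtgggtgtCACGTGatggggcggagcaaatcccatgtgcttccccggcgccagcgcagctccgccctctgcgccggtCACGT
Eif3c: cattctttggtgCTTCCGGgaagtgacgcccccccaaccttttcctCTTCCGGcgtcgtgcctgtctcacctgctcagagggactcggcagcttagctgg
Eif3g: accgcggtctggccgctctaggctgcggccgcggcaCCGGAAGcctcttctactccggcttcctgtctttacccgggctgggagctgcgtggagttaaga
Eif1ax: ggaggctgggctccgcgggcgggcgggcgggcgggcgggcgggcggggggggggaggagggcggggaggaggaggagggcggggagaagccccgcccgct
Eif4b: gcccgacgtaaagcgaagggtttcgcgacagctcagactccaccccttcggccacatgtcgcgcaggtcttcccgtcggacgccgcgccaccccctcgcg
Eif4h: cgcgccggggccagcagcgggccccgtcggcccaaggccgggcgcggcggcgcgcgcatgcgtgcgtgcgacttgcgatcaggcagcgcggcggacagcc
Eif4g3: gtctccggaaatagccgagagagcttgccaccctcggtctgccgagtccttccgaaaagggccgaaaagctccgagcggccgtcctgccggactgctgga

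Promoters, from 250 bases before to 50 bases after the start, were given for 42 of the 51 members. The ETS motif CCGGAAG, searched on both strands, was in the promoter of 15 of these 42 genes (35.7%), against 9.93% of 27025 genes and 20.5% of the 8997 genes with a promoter that passed the filter in muscle. The E-box CACGTG was in 10 of 42 (23.8%), against 8.09% of all genes and 12.0% of those that passed in muscle. The glucocorticoid response element, an inverted pair of AGAACA with 3 bases between, was in 0 of 42, against 0.0518% of all genes, and a single AGAACA was in 6 of 42 (14.3%), against 21.3% of all genes and 14.7% of those that passed in muscle. The ATF4 site TGATGNAA was in Eif2s3x only (2.38%), against 4.51% of all genes and 2.6% of those that passed in muscle. A start that reads C and then 4 bases of C or T, the form of the terminal oligopyrimidine mRNAs, was found in Eif2s3x and Eif3f (4.76%). It was in 3.01% of all genes and 3.11% of those that passed in muscle. These matches describe the letters of a window and no binding was measured.

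Among the eIF4 factors, the scaffold gene Eif4g1 (chromosome 16, bases 20668313 to 20692884 of GRCm38, plus strand) had 118, 121 and 115 TPM in muscle of daily mice, 142, 134 and 133 TPM after weekly prednisone and 149, 153 and 143 TPM after vehicle. The 3 groups did not overlap, with weekly values in the middle. Its log2 fold change after daily prednisone was -0.33 ± 0.05 (SE; limma adjusted p = 0.00401). Its relative Eif4g3 had 30.6, 27.8 and 27.1 TPM in daily mice, 36.6, 30.2 and 31.6 TPM in weekly mice and 34.5, 34.6 and 36.6 TPM in vehicle mice. Daily and vehicle libraries did not overlap, at -0.30 ± 0.08 (limma adjusted p = 0.0345), and weekly libraries overlapped both. The ratio of Eif4g1 to Eif4g3 within a library was 3.84 to 4.43 over the 9 muscle libraries, with no separation of the regimens. Eif4b, which stimulates the helicase, had 53.6, 52.5 and 52.6 TPM in daily mice, 60.3, 54.3 and 55.5 TPM in weekly mice and 60.8, 64.9 and 63.1 TPM in vehicle mice. This was a fall of 0.25 on the log2 scale after daily prednisone (-0.25 ± 0.05, limma adjusted p = 0.0168), and neither regimen overlapped vehicle. Eif4h, which has the same activity, had 56.8, 52.1 and 49.7 TPM in daily mice, 60.1, 55.4 and 56.1 TPM in weekly mice and 63.8, 64.5 and 61.5 TPM in vehicle mice, at -0.26 ± 0.06 (limma adjusted p = 0.0229). The weekly libraries overlapped the daily ones and lay below vehicle.

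The helicases themselves did not pass the test. Eif4a1 had 84.2, 73.1 and 76.9 TPM in daily mice and 76.1, 74.3 and 70.8 TPM in vehicle mice. Eif4a2 had 197, 218 and 209 TPM in daily mice and 208, 206 and 218 TPM in vehicle mice, and daily and vehicle libraries overlapped for both genes. The pseudogene Eif4a-ps4, left out by the naming rule, was listed at 0.0107 TPM or less in the daily libraries and at 5.90 to 6.66 TPM in the vehicle libraries, and reads shared with the helicase genes could be split between them. The cap-binding gene Eif4e had 105, 113 and 101 TPM in daily mice and 106, 127 and 110.5 TPM in vehicle mice, and Eif4e3 had 17.2, 15.2 and 16.3 TPM in daily mice and 18.1, 18.1 and 17 TPM in vehicle mice. Neither passed the test and the groups overlapped.

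Of the 14 genes of eIF3, which bridges eIF4G and the ribosome, 3 were called lower and 11 lay below 0, where 11.8% of all genes were called lower and 68.4% lay below 0. Eif3c, a core subunit, had 40.1, 38.3 and 37.5 TPM in daily mice, 43.0, 41.2 and 42.4 TPM in weekly mice and 49.4, 47.1 and 46.9 TPM in vehicle mice, at -0.30 ± 0.05 for daily prednisone (limma adjusted p = 0.00649). The 3 groups stood apart, again with weekly in the middle. Eif3i had 87.9, 82.8 and 82.0 TPM in daily mice, 86.5, 88.2 and 89.4 TPM in weekly mice and 102, 96.6 and 98.7 TPM in vehicle mice, at -0.23 ± 0.05 (limma adjusted p = 0.0123). Eif3g had 57.4, 55.6 and 59.0 TPM in daily mice, 60.6, 59.9 and 61.1 TPM in weekly mice and 65.3, 63.7 and 65.7 TPM in vehicle mice, at -0.18 ± 0.04 (limma adjusted p = 0.0274). Eif3g was the member with the smallest residual SD in muscle, 0.03. Both regimens lay below vehicle in every library of Eif3i and Eif3g. The other 11 subunits ranged from -0.22 (Eif3l) to 0.14 (Eif3a).

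Among the scanning factors, Eif1ax (chromosome X, bases 159372178 to 159389928 of GRCm38, plus strand), an eIF1A gene, had the largest decrease of all members. It had 28.4, 31.0 and 25.9 TPM in daily mice, 36.5, 32.9 and 27.0 TPM in weekly mice and 43.8, 43.5 and 43.3 TPM in vehicle mice, at -0.60 ± 0.10 (limma adjusted p = 0.00773). The vehicle libraries agreed closely, and all 6 prednisone libraries lay below them. Eif1a, the other eIF1A gene (chromosome 18, bases 46597701 to 46616456 of GRCm38, plus strand), had 8.15, 7.46 and 8.04 TPM in daily mice, 6.11, 6.94 and 7.0 TPM in weekly mice and 6.52, 6.73 and 7.23 TPM in vehicle mice. Its daily libraries were all above vehicle, but the difference of 0.18 ± 0.07 did not pass (limma adjusted p = 0.137). Within a library, where scaling cancels, the ratio of Eif1a to Eif1ax was 0.241 to 0.310 in daily mice, 0.167 to 0.259 in weekly mice and 0.149 to 0.167 in vehicle mice. Daily libraries did not overlap vehicle in this ratio, and with 3 libraries against 3 an exact two-sided permutation test cannot give a p below 0.1. Eif5, which makes eIF2 hydrolyse its GTP, had 44.2, 49.7 and 46.5 TPM in daily mice and 57.6, 53.1 and 54.9 TPM in vehicle mice, without overlap, and did not pass (limma adjusted p = 0.0655).

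**Figure D2:**
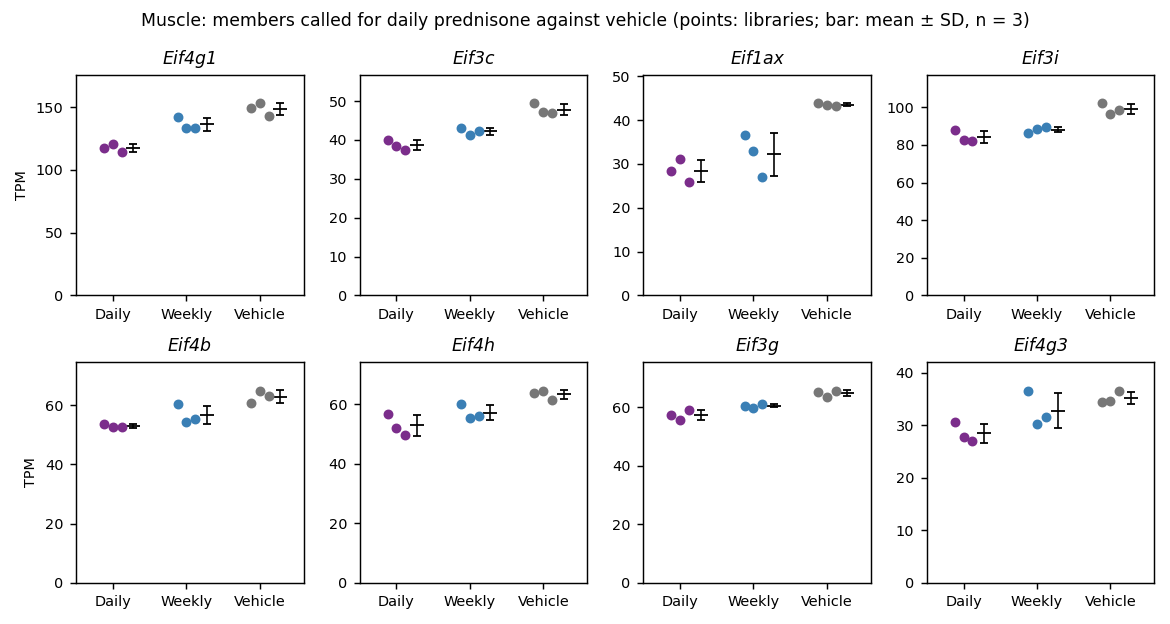
TPM in each muscle library for the 8 initiation factors called for daily prednisone against vehicle, with daily, weekly and vehicle mice from left to right, in order of p; points are libraries and the bar is the mean with its SD (n = 3). In all 8 panels the daily libraries lie below the vehicle libraries and the weekly mean lies between the daily and vehicle means.

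The carriers of the initiator tRNA changed little. The 6 genes of this group lay between -0.17 and 0.13 after daily prednisone, with a median of 0.03 where the median of all genes was -0.09. The gamma subunit of eIF2 has an X-linked and a Y-linked gene in the mouse. Eif2s3x had 27.7, 25.5 and 24.8 TPM in daily mice, 28.9, 25.7 and 27.6 TPM in weekly mice and 29.8, 27.9 and 28.9 TPM in vehicle mice. Eif2s3y had 34.2, 33.8 and 32.4 TPM in daily mice, 35.3, 28.8 and 32.5 TPM in weekly mice and 30.7, 29.9 and 30.8 TPM in vehicle mice. Neither passed the test, but the pair moved apart within the libraries: the ratio of Eif2s3x to Eif2s3y was 0.755 to 0.809 in daily mice, 0.817 to 0.890 in weekly mice and 0.932 to 0.973 in vehicle mice, and no groups overlapped. In adipose tissue the ratio was 0.833 to 0.993 in daily mice, 0.771 to 1.01 in weekly mice and 0.890 to 1.04 in vehicle mice, with overlap throughout. The 2 genes are close copies, so the split of shared reads between them is uncertain.

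The 5 subunits of eIF2B, the exchange factor of eIF2, had a median of -0.20 after daily prednisone with none called. Eif2b2 had 37.2, 41.9 and 42.1 TPM in daily mice, 42.2, 37.4 and 33.4 TPM in weekly mice and 50.1, 46.4 and 45.2 TPM in vehicle mice. All 6 prednisone libraries lay below vehicle, and neither comparison passed (limma adjusted p = 0.126 for daily and 0.174 for weekly prednisone). The 4 eIF2 alpha kinases lay between -0.13 (Eif2ak3) and 0.14 (Eif2ak2). Eif5a had 309, 299 and 302 TPM in daily mice and 328, 307 and 288 TPM in vehicle mice, with overlap.

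**Figure D3:**
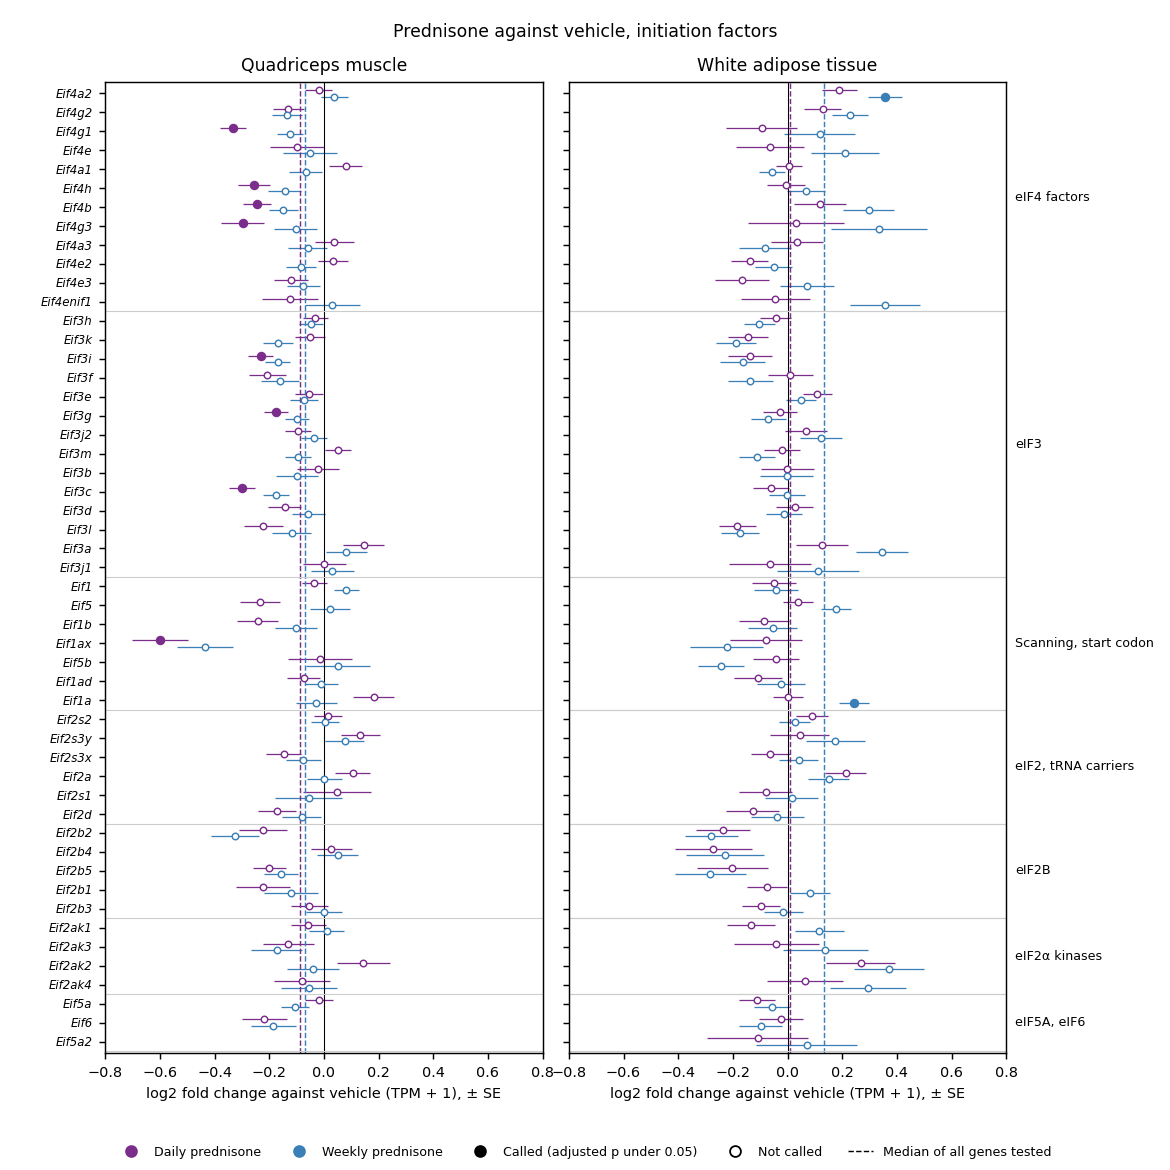
Log2 fold change against vehicle with its SE for each initiation factor after daily and weekly prednisone, in muscle and in adipose tissue; filled points are called, and dashed lines give the median of all genes tested. In muscle 8 daily values are filled and all lie below 0, where 11.8% of all genes were called lower. In adipose tissue only weekly Eif4a2 and Eif1a are filled, both above 0, where 5.72% of all genes were called higher.

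The number of calls in muscle depended on the scaling and on single libraries. With TMM scaling, which sets the median change of all genes near 0 (-0.01), 3 of the 8 stayed called: Eif4g1 at -0.24 (limma adjusted p = 0.0288), Eif3c at -0.21 (0.0317) and Eif1ax at -0.51 (0.0243). These 3 were also called without any 1 of the 9 muscle libraries in turn, while 5 members were called without daily mouse 2, 3 without daily mouse 3 and 4 without vehicle mouse 2. Eif3g and Eif4g3 lost their call without any 1 of daily mice 2 and 3, weekly mouse 3 and the 3 vehicle mice.

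After weekly prednisone 0 of 50 members were called in muscle by limma, where 0.049% of all genes were called. At an unadjusted p under 0.05 there were 13 members, and 1891 of all 12246 genes. Groups did not overlap for 15 members, all lower than vehicle, where 23% of all genes showed no overlap and 19.3% were all lower. The median was -0.08 over the members and -0.07 over all genes. The largest difference was again that of Eif1ax, -0.44 ± 0.10 (limma adjusted p = 0.158). The comparisons of daily and of weekly prednisone share their vehicle libraries. Weekly against daily prednisone put 8 members and 2130 of all 12246 genes at an unadjusted p under 0.05. By limma 0 of the 50 members were called, with 1.77% of all genes called. Eif4g1 came nearest, at 0.21 ± 0.05 for weekly over daily prednisone (limma adjusted p = 0.0633).

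The table also gives single transcripts. In muscle after daily prednisone 12 of 149 tested transcripts of initiation factors were called, 2 higher and 10 lower, where 5.64% of all transcripts were called. With 1 library left out, between 1 (without daily mouse 3) and 8 (without weekly mouse 1) of the 12 were called. Transcripts of Eif4g1 differed in direction. The protein-coding ENSMUST00000115461.7 was at 0.00532, 3.19 and 1.67 TPM in daily mice, 26.9, 13.7 and 14.4 TPM in weekly mice and 28.8, 32.8 and 26.6 TPM in vehicle mice. It fell by 3.76 on the log2 scale after daily prednisone (SE 0.48, limma adjusted p = 0.00801), and stayed called without any 1 library. The retained-intron transcript ENSMUST00000132320.7 was at 22.5, 26.4 and 25.5 TPM in daily mice, 6.5, 20.1 and 16.3 TPM in weekly mice and 5.96, 4.76 and 8.54 TPM in vehicle mice, at 1.83 ± 0.36 (limma adjusted p = 0.0279). Its daily libraries all lay above the rest, and it was called without 4 of the 9 libraries in turn. A second protein-coding transcript, ENSMUST00000115457.7, had 14.1, 17.1 and 11.6 TPM in daily mice and 29.8, 27.4 and 22.6 TPM in vehicle mice. This was -0.86 ± 0.20 (limma adjusted p = 0.0460), without overlap. The gene total fell by 0.33, so the transcripts moved by far more than their sum. Eif4g1 has 22 transcripts in the table that share most of their exons, and how their reads were divided is an estimate.

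Among transcripts of other genes, Eif5a ENSMUST00000164359.7 was the other one called higher, with 36.9, 42.4 and 51.5 TPM in daily mice and 21.2, 20.6 and 22.9 TPM in vehicle mice, at 0.97 ± 0.16 (limma adjusted p = 0.0178). The total of Eif5a, in contrast, overlapped between the groups. A transcript of Eif3i, ENSMUST00000135055.7, had 3.09, 3.84 and 3.23 TPM in daily mice and 6.55, 6.71 and 7.56 TPM in vehicle mice, at -0.86 ± 0.13 (limma adjusted p = 0.0144). In the other 5 comparisons of regimens 0 transcripts of members were called by limma, with 10 to 33 at an unadjusted p under 0.05. How many of all transcripts lay under that cut was not counted. Of all transcripts 0.0249% were called in muscle for weekly prednisone against vehicle and 0.332% for weekly against daily prednisone. In adipose tissue 0.00276% were called for daily and 0.0855% for weekly prednisone against vehicle, and 0.00827% for weekly against daily prednisone.

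Genes that regulate or follow initiation were taken as lists chosen with earlier results of these data known. After daily prednisone in muscle 1 of 3 4E-BP genes, 4 of 9 tested in the elongation list and 1 of 3 in that of termination and recycling were called lower. So were 3 of 8 in the poly(A)-binding list, 5 of 17 in that of other initiation regulators and 1 of 12 in that of the integrated stress response. In the mTORC1 and S6 kinase list 4 of 12 were called lower, where 11.8% of all genes were. These lists mix genes of unlike action. The elongation list also holds Eef2k, Eef1akmt1 and Eef1e1, and the initiation list Iars, Mtif2 and Mtif3. The mTORC1 list also holds Tsc1, Tsc2, Akt1s1, Deptor and Ddit4. A single gene of these lists, Rps6, was called higher. Eif4ebp2, which sequesters eIF4E, had 31.6, 35.7 and 33.0 TPM in daily mice, 43.5, 40.4 and 41.5 TPM in weekly mice and 43.5, 46.1 and 45.5 TPM in vehicle mice. Daily libraries stood below both other groups, at -0.42 ± 0.06 against vehicle (limma adjusted p = 0.00385), and weekly over daily prednisone was 0.32 ± 0.06 (0.0351). Eef1a2, the elongation factor of mature muscle, had 667, 651 and 627 TPM in daily mice and 845, 797 and 799 TPM in vehicle mice, at -0.33 ± 0.05 (limma adjusted p = 0.00569). Eef2, which moves the ribosome along the mRNA, had 431, 394 and 394 TPM in daily mice and 510.2, 503 and 485 TPM in vehicle mice, at -0.30 ± 0.05 (limma adjusted p = 0.00707). Daily and vehicle libraries did not overlap for either.

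In adipose tissue after weekly prednisone 2 of 51 initiation factors were called higher by TPM, the helicase gene Eif4a2 and the scanning gene Eif1a, and none lower. Of all genes 5.72% were called higher. With TMM scaling neither gene passed, and 4 other members were called, all lower. Daily prednisone gave 0 calls among the members, where 0.00707% of all genes were called. Eif4a2 (chromosome 16, bases 23107444 to 23114136 of GRCm38, plus strand) had 229, 231 and 238 TPM in daily mice, 271, 258 and 255 TPM in weekly mice and 188, 216 and 209 TPM in vehicle mice. The 3 groups did not overlap, and weekly prednisone stood at 0.36 ± 0.06 against vehicle (limma adjusted p = 0.0188). Eif1a had 69.8, 67.8 and 66.4 TPM in daily mice, 79.9, 82.2 and 79.4 TPM in weekly mice and 66.3, 69.1 and 68.2 TPM in vehicle mice, at 0.24 ± 0.06 for weekly prednisone (limma adjusted p = 0.0361). Its weekly libraries lay above all others, and daily and vehicle libraries overlapped.

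Of the 14150 genes tested in adipose tissue 7.43% were called after weekly prednisone, 5.72% higher and 1.72% lower, so 2 of 51 (3.92%) lie below the background. The median was 0.01 over the members and 0.13 over all genes, and 25 of 51 members lay below 0, against 29.7% of all genes. Groups did not overlap for 18 members, 8 of them lower after weekly prednisone and 10 higher, where 35.4% of all genes showed no overlap, 7.88% all lower and 27.6% all higher. The calls changed with the scaling. TMM scaling moved the median of all genes to -0.02. Eif4a2 then stood at 0.18 (limma adjusted p = 0.1) and Eif1a at 0.07 (0.551), while 4 other members were called, all lower: Eif2b2, Eif3i, Eif3l and Eif5b. Neither call held without weekly mouse 3 or without vehicle mouse 3, and without weekly mouse 2 the calls were 4 (Eif2ak2, Eif3a, Eif4a2 and Eif4b, all higher). Without daily mouse 1 or 3, weekly mouse 1, or vehicle mouse 1 or 2, Eif4a2 was the 1 call. Within a library the ratio of Eif4a1 to Eif4a2, which scaling cannot move, was 1.86 to 1.91 in daily mice, 1.51 to 1.67 in weekly mice and 2.02 to 2.32 in vehicle mice, and no groups overlapped. The pseudogene Eif4a-ps4 was at 10.1 to 22.0 TPM in daily mice, 21.2 to 38.8 TPM in weekly mice and 6.13 to 23.5 TPM in vehicle mice in this tissue, and its part in the split of reads was not tested.

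Markers of other cells moved in the same libraries. Of 7 markers of fibro-adipogenic progenitors 5 were called higher after weekly prednisone, with sums of 2046 to 2404 TPM in weekly mice and 1533 to 1640 TPM in vehicle mice, and 4 of 12 macrophage markers were called higher, with sums of 2874 to 3420 TPM in weekly mice and 2259 to 3042 TPM in vehicle mice. Their part in the 2 calls was not tested. Muscle markers summed to 215, 1767 and 1294 TPM in weekly mice and to 295, 180.2 and 217 TPM in vehicle mice. Their part was examined only by refitting. With a covariate for muscle transcripts 11 members were called, 9 of them higher, where 29.1% of all genes were called. Eif4a2 and Eif1a were among the 11. Leaving out weekly mice 2 and 3 and daily mouse 2 together gave 4 calls, all higher, among them Eif4a2 and not Eif1a.

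**Figure D4:**
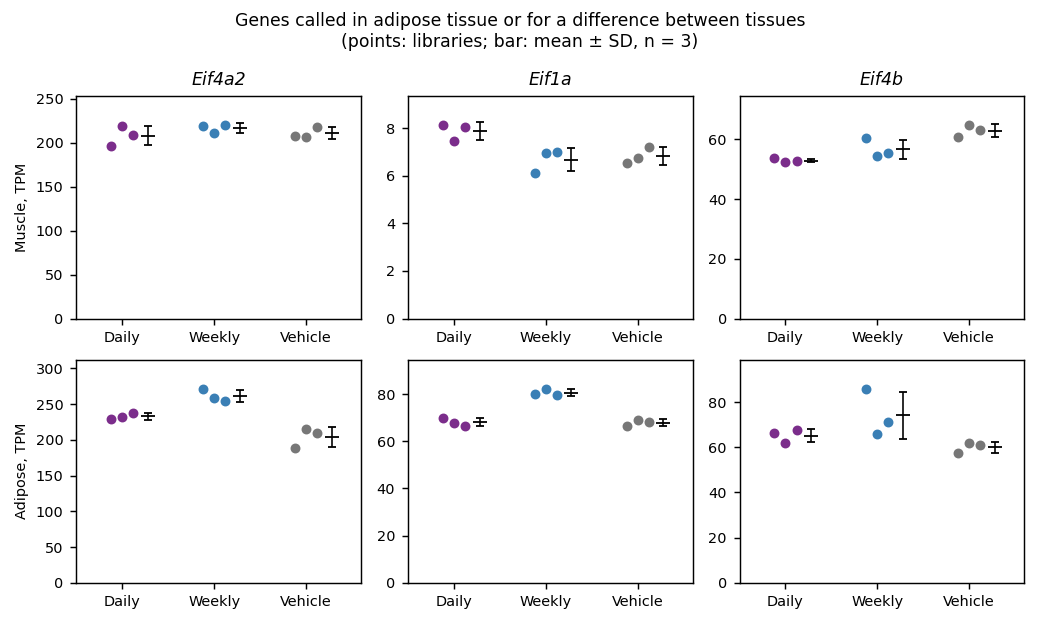
TPM in each library for Eif4a2, Eif1a and Eif4b, in muscle above and adipose tissue below, with daily, weekly and vehicle mice from left to right; points are libraries and the bar is the mean with its SD (n = 3). In adipose tissue the weekly libraries of Eif4a2 (255 to 271 TPM) and Eif1a (79.4 to 82.2 TPM) lie above all others, and Eif4b lies below vehicle in treated muscle and above vehicle in treated adipose tissue.

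Members that came near the threshold in adipose tissue after weekly prednisone were Eif3a, the largest eIF3 subunit, with 73.8, 59.2 and 61.3 TPM in weekly mice and 47.2, 55.4 and 49.4 TPM in vehicle mice (0.35 ± 0.10, limma adjusted p = 0.0544), and Eif4g2, an eIF4G relative that does not bind eIF4E, with 376, 379 and 376 TPM in weekly mice and 294, 341 and 332 TPM in vehicle mice (0.23 ± 0.07, adjusted p = 0.0645). Neither overlapped vehicle. All 4 eIF2 alpha kinases lay above 0, between 0.12 and 0.37, and 4 of 5 eIF2B subunits lay below 0, with none called by TPM. Of all genes 29.7% lay below 0, and their median was 0.13. With TMM scaling the median was -0.02 over all genes and -0.16 over the members. Among the pathway lists Larp4, a poly(A)-binding partner, was called higher (0.40 ± 0.10, limma adjusted p = 0.0434), and the stress response factors Atf5 (-0.23 ± 0.05, 0.0377) and Ddit3 (-0.35 ± 0.07, 0.0225) were called lower.

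Daily prednisone gave 0 of 51 calls by limma in adipose tissue, where 0.00707% of all genes were called. The 4 members at an unadjusted p under 0.05 were Eif2a, Eif4a2, Eif2b2 and Eif3l, with fold changes of 0.21, 0.19, -0.24 and -0.18 on the log2 scale. Of all 14150 genes 1305 lay under the same cut. Weekly against daily prednisone likewise gave 0 of 51 calls by limma, with 0.311% of all genes called. An unadjusted p under 0.05 was found for 8 members and for 2242 of all 14150 genes. For this pair of groups 13 members had every weekly library above every daily library and 2 every weekly library below, where 22.5% of all genes lay all above and 3.05% all below, 25.5% in all.

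Muscle and adipose tissue of the 3 vehicle mice were compared within each mouse. Of 50 members tested in both tissues 41 were called, 5 higher and 36 lower in muscle, where 86.7% of all 11737 genes were called, 13% higher and 73.7% lower. The median difference was -0.57 over the members and -0.88 over all genes. TPM are shares of a fixed total, of which mitochondrial transcripts and muscle markers held the amounts given above. TMM scaling moved the median of all genes by 0.95, to 0.07, and that of the members to 0.48, and 31 of 38 called members were then higher in muscle. Of the members called under both scalings 17 changed direction and 12 kept it. Those that kept it were lower in muscle for Eif1a, Eif4a1, Eif2ak2, Eif3l, Eif2ak3, Eif4e2 and Eif2ak4, and higher for Eif3j1, Eif3j2, Eif4e, Eif2s2 and Eif2b4.

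The largest difference was that of Eif1a, with 6.52, 6.73 and 7.23 TPM in muscle and 66.3, 69.1 and 68.2 TPM in adipose tissue of vehicle mice, at -3.14 (limma adjusted p = 1.73e-10; -2.11 with TMM scaling). Eif4a1 had 76.1, 74.3 and 70.8 TPM in muscle and 437, 436 and 434 TPM in adipose tissue, at -2.55 (2.19e-10; -1.45 with TMM scaling). It had the smallest residual SD of all members in adipose tissue, 0.02. A pair of kinases and an eIF3 subunit followed. Eif2ak2 had 2.13, 2.26 and 2.11 TPM in muscle and 9.09, 10.7 and 10.1 TPM in adipose tissue (-1.79). Eif3l had 33.8, 31.7 and 32.3 TPM in muscle and 106, 113 and 114 TPM in adipose tissue (-1.74). Eif2ak3 had 2.63, 2.24 and 2.78 TPM in muscle and 7.99, 11.5 and 8.13 TPM in adipose tissue (-1.51). All 4 eIF2 alpha kinases were called lower in muscle by TPM, and with TMM scaling Eif2ak1 was called higher.

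On the other side, both genes of the loosely bound eIF3 subunit j were higher in muscle. Eif3j1 had 12.1, 11.3 and 12.1 TPM in muscle and 7.82, 5.58 and 5.69 TPM in adipose tissue (0.82). Eif3j2 had 56.2, 61.9 and 59.9 TPM in muscle and 35.6, 38.3 and 35.6 TPM in adipose tissue (0.69). The 2 genes are near copies, and the split of reads between them is uncertain. Eif4e had 106, 127 and 110.5 TPM in muscle and 68.1, 68.9 and 84.5 TPM in adipose tissue (0.63), and Eif2s2, the beta subunit of eIF2, had 85.6, 77.8 and 80.4 TPM in muscle and 58.7, 60.4 and 58.7 TPM in adipose tissue (0.45). Muscle and adipose libraries did not overlap for any of these genes. Eif2b4 had 32.8, 31.8 and 29.5 TPM in muscle and 23.8, 22.3 and 30.4 TPM in adipose tissue (0.30), with overlap, and was not called without vehicle mouse 1, without vehicle mouse 2 or without the filter on low values.

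Related genes stood in different proportion in the tissues. These ratios are taken within a library, so that scaling cancels, and every muscle library stood apart from every adipose library for the 4 pairs that follow. The ratio of Eif4a1 to Eif4a2, both helicase genes, was 0.309 to 0.428 over 9 muscle libraries and 1.51 to 2.32 over 9 adipose libraries. Eif1a to Eif1ax stood at 0.149 to 0.310 in muscle and 1.09 to 2.07 in adipose tissue. Eif4e exceeded Eif4e3 by 5.86 to 7.70 times in muscle and by 1.83 to 2.63 times in adipose tissue. Eif4g1 exceeded Eif4g3 by 3.84 to 4.43 times in muscle and by 4.97 to 7.80 times in adipose tissue. Eif5a2 was scarce beside Eif5a in both tissues: Eif5a2 ranged from 0.162 to 0.413 TPM in muscle and from 1.03 to 2.16 TPM in adipose tissue, and Eif5a from 281 to 328 TPM in muscle and from 533 to 623 TPM in adipose tissue.

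**Figure D5:**
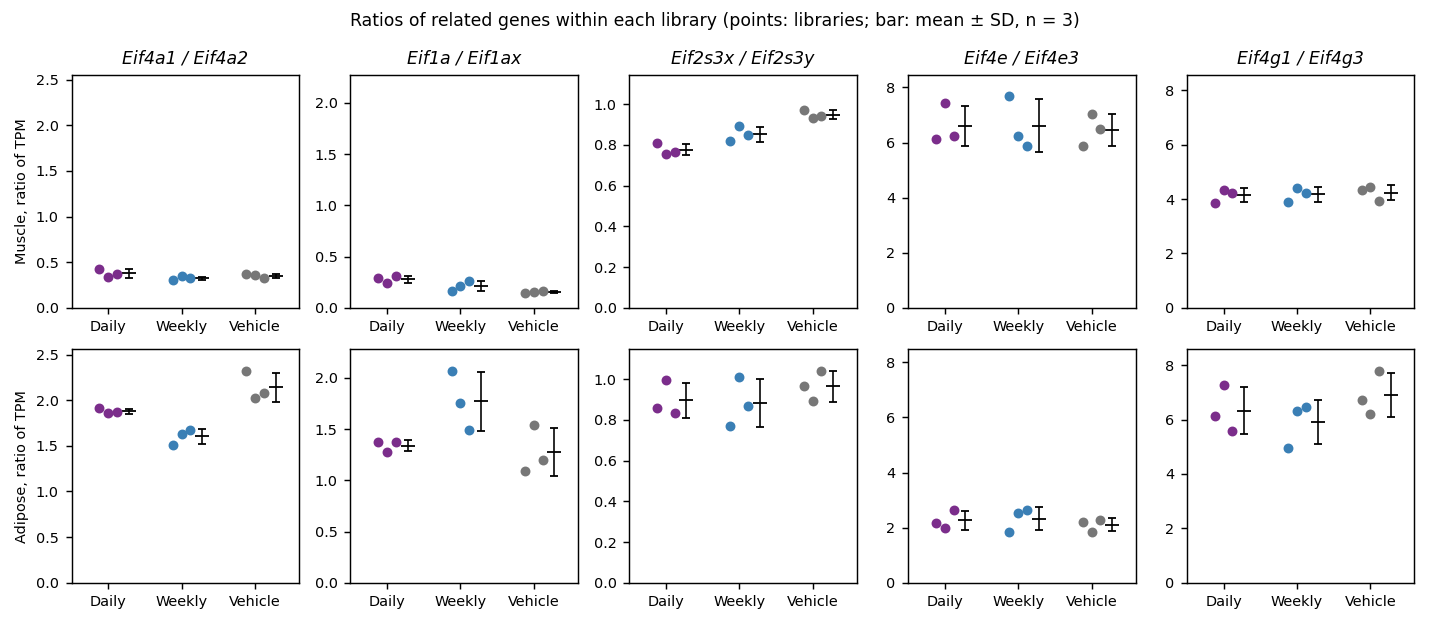
Ratio of TPM between related initiation factor genes within each library, in muscle above and adipose tissue below, with daily, weekly and vehicle mice from left to right; points are libraries and the bar is the mean with its SD (n = 3). The ratio of Eif4a1 to Eif4a2 lies below 0.43 in every muscle library and above 1.5 in every adipose library, and the ratio of Eif2s3x to Eif2s3y in muscle separates the 3 regimens.

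Promoter stretches are shown for the 2 pairs, among those compared here, whose ratio separated all 3 regimens in a tissue. How often other pairs of genes separate alike was not counted, and no test was run on the ratios. The stretches are cut as above and taken from RefSeq on GRCm38.p6. Eif4a1 lies at chr11:69672404-69672503 on the minus strand, Eif4a2 at chr16:23107388-23107487 on the plus strand, Eif2s3x at chrX:94212632-94212731 on the minus strand and Eif2s3y at chrY:1010515-1010614 on the plus strand. Capitals in Eif2s3x mark the run of C and T at its start.
Eif4a1: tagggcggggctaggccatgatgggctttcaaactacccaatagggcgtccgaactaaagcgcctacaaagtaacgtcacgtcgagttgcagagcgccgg
Eif4a2: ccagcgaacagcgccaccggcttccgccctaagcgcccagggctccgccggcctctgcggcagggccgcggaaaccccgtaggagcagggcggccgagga
Eif2s3x: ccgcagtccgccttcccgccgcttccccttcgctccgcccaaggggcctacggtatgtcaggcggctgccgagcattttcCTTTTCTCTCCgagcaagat
Eif2s3y: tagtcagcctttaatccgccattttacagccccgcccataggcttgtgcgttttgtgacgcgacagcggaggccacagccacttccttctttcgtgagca

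Whether an effect of prednisone differed between the tissues was tested within mice, on the muscle value less the adipose value. For daily prednisone 0 of 50 members were called by limma, with 0.0596% of all genes called. An unadjusted p under 0.05 was found for 8 members and for 1660 of all 11737 genes. For weekly prednisone 1 of 50 was called, where 2.56% of all genes were called, 2.49% lower. This was Eif4b (chromosome 15, bases 102073773 to 102097173 of GRCm38, plus strand), whose muscle values are given above. In adipose tissue it had 66.1, 62.0 and 67.4 TPM in daily mice, 85.8, 65.6 and 71.3 TPM in weekly mice and 57.2, 61.7 and 60.8 TPM in vehicle mice. On the log2 scale muscle minus adipose was -0.50, -0.27 and -0.36 in weekly mice and 0.08, 0.07 and 0.05 in vehicle mice. The difference was -0.45 ± 0.08 (limma adjusted p = 0.0355), where the median of all genes was -0.19 and 77.9% of them lay below 0. The daily mice lay beside the weekly ones, at -0.30, -0.24 and -0.35, and the difference there was -0.36 ± 0.08 (limma adjusted p = 0.123). No vehicle mouse overlapped a treated mouse. With TMM scaling the weekly difference was -0.20 (limma adjusted p = 0.222), and it was called without daily mouse 2 or weekly mouse 2 and not called without any other single mouse, with adjusted p between 0.0509 and 0.108.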

How the data were processed

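RNA was extracted with Trizol and columns and made into stranded mRNA libraries, per the labels' protocols. The authors deposited TPM per transcript, 1 column per library. Per the submitters' processing notes Trimmomatic, HISAT2 and kallisto were used with mm10; versions, roles and the transcript annotation are not given in the sources used here. Transcript TPM were summed per symbol. Genes that reached 1 TPM in 3 or more of a tissue's 9 libraries were fitted in that tissue, as log2(TPM + 1), with limma 3.58.1 in R 4.3.3 (lmFit, eBayes with a trend, 6 residual degrees of freedom). P-values were adjusted over all genes tested (Benjamini-Hochberg, 0.05). Tissues were compared on each mouse's difference. Fold changes of low genes are understated by the pseudocount of 1. TPM are relative shares, so TMM scaling was run beside them. The fits were tested on simulated data. The members, the lists and the named genes (called members, pairs of related genes, extremes of level and of tissue difference) were chosen with earlier results of these data known. Of the table's transcripts 94.7% have the same ID and version in the GENCODE annotation of GRCm38 used for positions. Plots were made in Python 3.11.15 (matplotlib 3.10.9).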

Additional observations from a re-analysis of the deposited data

Results flagged for a closer look

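The effect of weekly prednisone on Eif4b passed a test of the difference between the tissues, and this call depended on the processing. The difference of the effect in muscle and in adipose tissue was -0.45 on the log2 scale (SE 0.08, limma adjusted p = 0.0355, n = 3 mice per group). Over all genes the median of this difference was -0.19, and 77.9% of genes lay below 0. All 3 weekly mice had a lower muscle minus adipose value than all 3 vehicle mice. With TMM scaling the difference was -0.20 (limma adjusted p = 0.222). The call was also lost without a filter on low values (0.0666), with the replicate block (0.0663), without the third libraries (0.353), and without any 1 mouse other than daily mouse 2 or weekly mouse 2 (0.0509 to 0.108).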

How the results depend on the processing

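Of the values of single named genes under the alternatives 286 kept their direction and their side of the threshold, 63 kept the direction and no longer passed, and none reversed. For the comparison of tissues, however, the named genes were only the largest called differences in each direction. Among all members called there under both scalings, 17 reversed with TMM scaling and 12 did not. In muscle after daily prednisone the 8 calls became 3 with TMM scaling (336 higher and 443 lower over all genes, against 234 and 1440). They became 0 without the third library of every group, where Eif4g1 stood at -0.34 (limma adjusted p = 0.136). In that fit 9 members had an unadjusted p under 0.05, and how many of all genes did was not counted. The calls ranged from 3 to 10 with 1 library left out. With a filter at 5 TPM 12 members were called, where 22.5% of all genes were called. The third library had the middle value of its group for 36% to 52% of members, and for 42.0% to 56.2% of genes averaging 10 TPM or more. Libraries in random order would give 1 in 3, and every group lay above this. Genes of a library can vary together, and whether the third libraries are independent of the others was not tested. Leaving the third library out also lowers the residual degrees of freedom. Over all genes, calls in muscle after daily prednisone then fell from 1674 to 7. Those in adipose tissue after weekly prednisone fell from 1052 to 1. The 12 transcript calls became 5 with TMM scaling (4 of them among the 12), 5 with the replicate block and 1 without the third libraries. In adipose tissue after weekly prednisone the 2 calls became 4 with TMM scaling (407 higher and 841 lower over all genes, against 809 and 243), 1 with the replicate block, 0 without the third libraries, 11 with a covariate for muscle transcripts, 4 without the libraries rich in muscle transcripts, and 0 to 4 with 1 library left out. Weekly against daily prednisone gave 3 with that covariate. The call of Eif4b for a difference between tissues became 0 with TMM scaling, without a filter, with the replicate block and without the third libraries, 3 with both tissues in 1 fit, and 0 to 1 with 1 library left out. The 41 calls between tissues became 38 with TMM scaling and 38 with a filter at 5 TPM, 44 with both tissues in 1 fit, and 40 to 42 with 1 library left out. The residuals of same-numbered libraries had a median correlation of -0.03 in muscle (-0.12 to 0.11 over 9 pairs). In adipose tissue the median was 0.03 (-0.06 to 0.19 over 9 pairs). Differently numbered pairs were not compared, and whether same-numbered libraries share a batch was not tested. The replicate block gave 9 calls in muscle after daily prednisone. The cause of these shifts was not tested. With 3 mice per group and no read counts, the depth behind a value is unknown, and a gene that did not pass may still have changed.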
